A study of Mus musculus with 12 samples.

Results

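The 9 genes described here encode receptors that hand damaged mitochondria and other cargo to the autophagy machinery, with a few of their closest regulators: Sqstm1, Nbr1, Optn, Pink1, Bnip3, Bnip3l, Fundc1, Gabarapl1 and Tfeb. They were found by symbol among the gene names of 44450 loci measured by RNA sequencing in mouse heart, and each of the 9 symbols matched 1 locus. The locus of Pink1 also carries the names Gm27646 and Mir7019, and that of Nbr1 the name Gm27456, so each of these values covers every gene named in it. Hearts came from C57BL/6N mice aged 11 weeks. The 3 control libraries were from animals homozygous for a loxP-flanked Mrpp3 gene (Mrpp3 loxP/loxP), and the 3 knockout libraries from animals of that genotype that also carried Ckmm (+/Ckmm), a Cre transgene under the muscle creatine kinase promoter. Control animals thus carried the floxed alleles without Cre. Mrpp3, now named Prorp, encodes the nuclease of mitochondrial RNase P, which frees the 5′ ends of mitochondrial tRNAs. Deletion was directed to muscle, so other cells of the heart keep the gene.

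Autophagy encloses cargo in a membrane coated with small ubiquitin-like proteins of the ATG8 family and delivers it to the lysosome. Mitophagy, its mitochondrial form, is known to run by separate routes. In the ubiquitin route the kinase PINK1 collects on depolarised mitochondria and sets off their tagging with ubiquitin, and soluble receptors such as p62 (Sqstm1), NBR1 and optineurin (Optn) then join the ubiquitin chains to ATG8 proteins. In the other route, receptors anchored in the outer mitochondrial membrane (BNIP3, its relative NIX encoded by Bnip3l, and FUNDC1) bind ATG8 proteins directly. GABARAPL1 is an ATG8 protein, and TFEB is a transcription factor that switches on autophagy and lysosome genes.

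The sequences shown first are those of the genes that moved farthest in opposite directions, Sqstm1 and Pink1, and of Bnip3, whose window held the E-box. Each is the 250 bases that precede a transcription start, from RefSeq on build GRCm38.p6, read 5′ to 3′ on the strand of the gene. Capitals mark a match to CACGTG, the E-box that TFEB and its relatives can bind. This E-box also holds ACGTG, a form of the core of the element bound by the hypoxia factor HIF-1. Sqstm1 lies on the minus strand of chromosome 11 (gene 50200152 to 50210820), Pink1 on the minus strand of chromosome 4 (gene 138313409 to 138326296) and Bnip3 on the minus strand of chromosome 7 (gene 138890836 to 138909506).
Sqstm1, chr11:50210821-50211070: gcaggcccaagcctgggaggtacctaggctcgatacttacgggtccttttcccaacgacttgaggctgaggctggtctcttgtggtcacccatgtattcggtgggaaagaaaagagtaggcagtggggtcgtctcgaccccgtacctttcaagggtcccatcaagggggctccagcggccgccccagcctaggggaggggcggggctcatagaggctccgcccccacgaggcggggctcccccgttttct
Pink1, chr4:138326297-138326546: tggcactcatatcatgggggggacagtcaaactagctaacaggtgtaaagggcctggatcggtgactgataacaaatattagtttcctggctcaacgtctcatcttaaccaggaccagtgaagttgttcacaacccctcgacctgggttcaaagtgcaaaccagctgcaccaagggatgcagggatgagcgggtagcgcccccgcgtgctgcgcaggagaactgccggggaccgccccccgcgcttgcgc
Bnip3, chr7:138909507-138909756: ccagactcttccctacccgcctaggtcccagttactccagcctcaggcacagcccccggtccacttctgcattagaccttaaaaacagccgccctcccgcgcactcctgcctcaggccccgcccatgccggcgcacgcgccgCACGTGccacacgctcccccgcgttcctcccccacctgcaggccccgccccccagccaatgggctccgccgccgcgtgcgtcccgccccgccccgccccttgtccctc

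RefSeq promoter windows (250 bases before to 50 after a start) were at hand for 8 of the 9 genes, in 11 entries, and not for Bnip3l. They were searched on both strands for the E-box and the HIF-1 core named above, for TGATGNAA (an element of ATF4, the transcription factor of the integrated stress response), for TGACNNNGC (the core of the antioxidant response element of NRF2) and for GTAAACA (an element of FOXO factors). HIF-1 core here means ACGTG alone, and other forms of that core were not searched. ACGTG lies within the E-box, so 1 site can count for both. Across 32851 promoter entries the E-box was present in 7.15%, the HIF-1 core in 19.6%, the ATF4 element in 3.97%, the NRF2 core in 12.4% and the FOXO element in 3.65%. Bnip3 held the E-box at position -108 from its start. Nbr1 held the HIF-1 core on the opposite strand at position -139 from its start at 101552107. The window of its start at 101552654 held none of the strings. None of the windows of Sqstm1, Pink1, Gabarapl1, Optn, Fundc1 or Tfeb held any of these 5 strings, which says only that these letters are not in these windows. For Optn and Fundc1 the only start at hand lay inside the gene span, at 5064117 and 17572007. The 250 bases before the start were 63.2% G or C in Sqstm1, 57.2% in Pink1 and 72.4% in Bnip3, against a median of 52.4% over all entries.

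Among the other names of the Pink1 locus is a microRNA gene, Mir7019, whose precursor spans 69 bases of the same strand inside Pink1 (chromosome 4, 138316132 to 138316200). Its mature arms are shown because the locus carries its name and has a single value, with the seed (bases 2 to 8) in capitals. Whether the libraries captured RNAs as short as these arms is not given.
mmu-miR-7019-5p: aUCUGGGAggggcugucaggagu
mmu-miR-7019-3p: uCACCUUGgccgccucucugcag

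Levels are given in FPKM, a unit that divides fragments by transcript length and by library size, so levels of different genes can be compared. The sum over all loci was 523499 to 589995 FPKM in control libraries and 456493 to 516068 FPKM in knockout libraries. The files give no read totals. From the steps between the lowest values, the knockout libraries were estimated at 2.06 to 2.57 times the depth of control replicate 1 and the other controls at 1.32 and 1.35 times. Estimated depth thus differed with genotype. Any scaling between libraries, which is not given, would enter this estimate. Prorp stood at 2.64 to 3.49 FPKM in controls and 0.441 to 0.701 FPKM in knockouts, matching the labels. All 7 heart muscle markers (Myh6, Actn2, Tnnt2, Ryr2, Myl2, Myl3 and Tnni3) were abundant. Their summed level was 27817 to 31582 FPKM in controls and 6268 to 13861 FPKM in knockouts. Of the 7, 5 were lower in the knockout. Summed macrophage markers were 65.0 to 68.4 FPKM in controls and 105 to 119 FPKM in knockouts, and 5 of 5 were higher. Summed fibroblast markers were 251 to 315 FPKM in controls and 247 to 316 FPKM in knockouts, and 3 of 5 (Col1a1, Col1a2 and Tcf21) were higher, with log2 fold changes of 2.00, 1.38 and 0.93 (limma adjusted p = 0.0041, 0.0066 and 0.045). Dcn and Pdgfra went the other way, at -0.31 and -0.26, and did not pass (limma adjusted p = 0.136 and 0.305). The part of these cell types in the results was not tested. Knockout replicate 2 stood apart: its atrial muscle markers (Myl7, Myl4 and Sln) summed to 3320 FPKM, against 118 and 3.44 FPKM in the other knockouts and 1.65 to 6.75 FPKM in controls, and its blood markers (globins and Alas2) to 21895 FPKM, against 622 to 2902 FPKM in every other library. Sln was listed at 0 in 2 controls and in knockout replicate 3. The share of atrium in each library was not tested. In heart tissue of mixed cells, fewer cells of a type and less RNA per cell cannot be told apart.

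All 9 genes passed the filter of at least 1 FPKM in at least 3 libraries. Fold changes are differences of group means of log2(FPKM + 0.5), knockout minus control, tested with limma over 12181 loci with p-values adjusted by Benjamini-Hochberg and called under 0.05. Of the 9, 2 rose (Sqstm1 and Gabarapl1), 2 fell (Pink1 and Fundc1) and 5 did not pass. Over all tested loci 35.7% passed, 16.1% higher and 19.5% lower, so the share of called members is near the background. Scaling every library to one sum gave 3229 higher and 1400 lower loci in place of 1966 and 2377 and raised the median log2 fold change of all loci from -0.02 to 0.20. Under it the same number of members, 2 and 2, rose and fell. The median log2 fold change of the 9 was -0.05, against -0.02 over all tested loci. The libraries of the groups did not overlap for 6 of the 9 genes, against 52.3% of all tested loci.

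**Figure D1:**
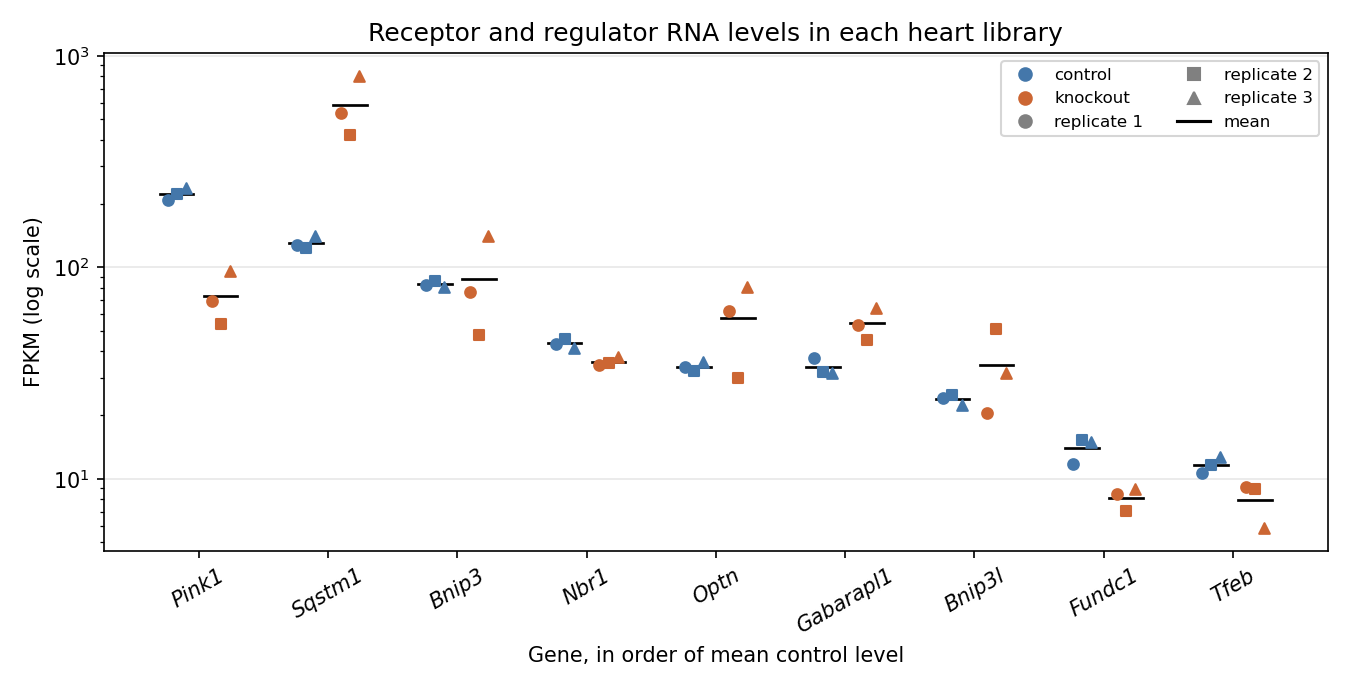
FPKM of each of the 9 genes in each of the 6 heart libraries on a log axis, control in blue and knockout in orange, with a bar at the mean of 3 libraries. Sqstm1 in the knockouts (420 to 806 FPKM) lies above every other value, and Pink1, the most abundant in controls, lies at 53.9 to 96.4 FPKM in knockouts.

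Of the ubiquitin-binding receptors, Sqstm1 passed the threshold and Nbr1 and Optn did not. These genes were not tested against each other. Sqstm1, which encodes p62, a scaffold that clusters ubiquitinated cargo and is itself degraded by autophagy, had 128, 124 and 141 FPKM in controls and 539, 420 and 806 FPKM in knockouts. Every knockout library lay above every control, and replicate 3 was the highest of the knockouts. The mean rose from 131 ± 9.20 to 588 ± 198 FPKM (SD, n = 3), a log2 fold change of 2.11 (SE 0.25, 95% interval 1.54 to 2.69, limma adjusted p = 0.0011).

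Nbr1, a receptor related to p62 in domain layout, had 43.6, 46.0 and 41.4 FPKM in controls and 34.5, 35.2 and 37.7 FPKM in knockouts. The groups did not overlap, but the log2 fold change of -0.28 (95% interval -0.54 to -0.02) did not pass (limma adjusted p = 0.086). Inside each library Sqstm1 was 2.69 to 3.41 times Nbr1 in controls and 11.9 to 21.4 times in knockouts. These ratios do not depend on scaling between libraries and were chosen after the values were seen.

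Optn, which encodes optineurin, a receptor recruited to ubiquitinated mitochondria, had 33.7, 32.2 and 35.7 FPKM in controls and 62.0, 30.1 and 80.5 FPKM in knockouts. Knockout replicates 1 and 3 lay above all controls, and replicate 2 lay below them. With all 6 libraries the log2 fold change was 0.64 (SE 0.33, 95% interval -0.12 to 1.41, limma adjusted p = 0.16). Without knockout replicate 2 it was 1.05 (limma adjusted p = 0.0022), and without knockout replicate 3 it was 0.35 (limma adjusted p = 0.38). With all 6 libraries it passed under array weights (0.84, limma adjusted p = 0.0042) and when scaled to one sum without loci of mitochondrial DNA (0.91, limma adjusted p = 0.044). Knockout replicate 2 is the library with high atrial and blood markers, whose part in this result was not tested.

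The locus of Pink1, the kinase that starts the ubiquitin route, is merged with Gm27646 and Mir7019. It had 209, 223 and 238 FPKM in controls, the highest mean of the 9 loci, and 69.2, 53.9 and 96.4 FPKM in knockouts. All knockouts lay below all controls. The mean fell from 223 ± 14.5 to 73.2 ± 21.5 FPKM, a log2 fold change of -1.64 (SE 0.22, 95% interval -2.15 to -1.14, limma adjusted p = 0.0018).

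Sqstm1 was 0.555 to 0.611 times Pink1 in the control libraries and 7.79 to 8.36 times Pink1 in the knockout libraries. This ratio, a description chosen after the values were seen, varied little among the knockouts although each gene alone differed by 1.92 and 1.79 times between its highest and lowest knockout library.

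Of the 3 receptors of the set anchored in the mitochondrial outer membrane, Fundc1 passed the test and Bnip3 and Bnip3l did not. FUNDC1 is a receptor known from hypoxia-induced mitophagy. Its RNA had 11.8, 15.2 and 14.9 FPKM in controls and 8.44, 7.06 and 8.93 FPKM in knockouts, without overlap. The mean fell from 13.9 ± 1.87 to 8.14 ± 0.971 FPKM, a log2 fold change of -0.74 (SE 0.15, 95% interval -1.08 to -0.40, limma adjusted p = 0.0080).

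Bnip3, a HIF-1 target in many cells, had 82.5, 86.1 and 81.0 FPKM in controls and 76.7, 47.6 and 140 FPKM in knockouts. The controls lay within the range of the knockouts, whose highest library was 2.95 times the lowest. The log2 fold change was -0.05 (95% interval -0.87 to 0.76, limma adjusted p = 0.92), so a change of the size seen for Fundc1 lies inside its interval. Its sign turned to 0.32 without knockout replicate 2 and to between 0.03 and 0.21 with libraries scaled to one sum, with or without loci of mitochondrial DNA, or quantile normalized. A pseudogene, Gm18258, lies inside the span of Bnip3 (138899250 to 138900237) and is not among the names of its locus.

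Bnip3l, which encodes NIX, known for clearing mitochondria from maturing red cells, had 24.2, 25.0 and 22.4 FPKM in controls and 20.5, 50.9 and 31.7 FPKM in knockouts. Knockout replicate 2 was the highest library, where 6 of the 9 genes had their lowest knockout value. The log2 fold change was 0.42 (SE 0.29, 95% interval -0.26 to 1.11, limma adjusted p = 0.29). Knockout replicate 2 also had the highest blood markers (21895 FPKM summed) and knockout replicate 1, with the lowest Bnip3l, the lowest (622 FPKM). The part of blood RNA in the Bnip3l values was not tested. Without knockout replicate 1 the log2 fold change was 0.74 (limma adjusted p = 0.046), and without knockout replicate 2 it was 0.10. Bnip3 was 3.41 to 3.61 times Bnip3l in controls, 3.73 and 4.43 times in knockout replicates 1 and 3, and 0.935 times in knockout replicate 2.

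**Figure D2:**
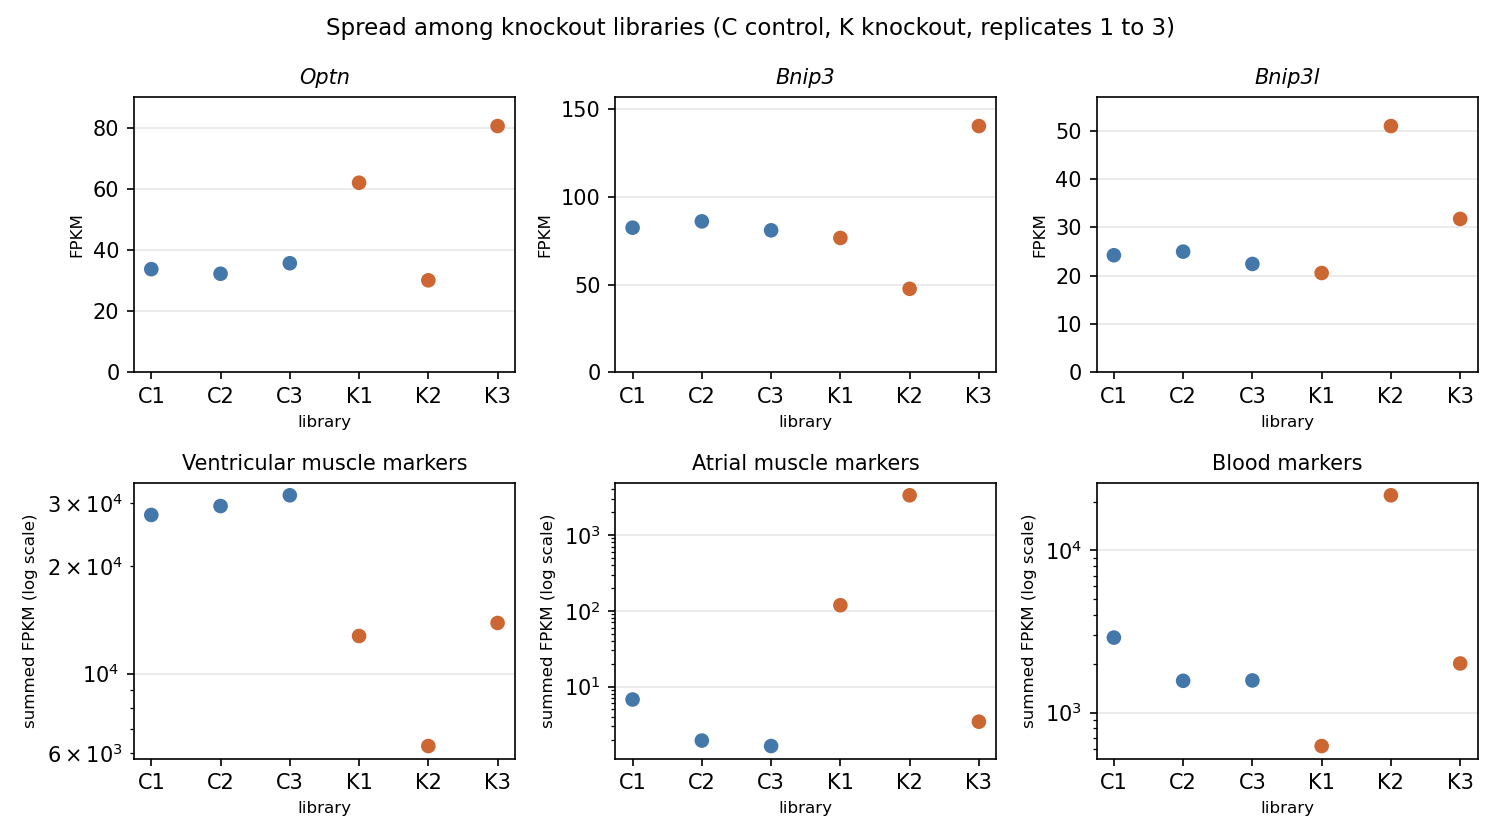
FPKM of Optn, Bnip3 and Bnip3l in each library (upper panels, linear axes from 0), with controls in blue and knockouts in orange. Lower panels give summed FPKM of heart muscle (titled ventricular), atrial muscle and blood markers in the same libraries, on log axes. Knockout replicate 2 (K2) is the lowest knockout for Optn and Bnip3, at 30.1 and 47.6 FPKM, and the highest for Bnip3l, at 50.9 FPKM, beside blood markers of 21895 FPKM.

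Gabarapl1, the ATG8 protein of the set, had 37.3, 31.97 and 31.7 FPKM in controls and 53.5, 45.2 and 64.2 FPKM in knockouts. All knockouts lay above all controls. The log2 fold change was 0.67 (SE 0.16, 95% interval 0.30 to 1.04, limma adjusted p = 0.016), a call lost without control replicate 2 (adjusted p = 0.067) or control replicate 3 (adjusted p = 0.063). The first bases of Gabarapl1 overlap a long noncoding RNA gene, 1700101I11Rik, listed as a locus of its own.

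Tfeb had 10.7, 11.6 and 12.7 FPKM in controls and 9.13, 8.97 and 5.82 FPKM in knockouts. All knockouts lay below all controls, and replicate 3 was the lowest. The log2 fold change of -0.54 (SE 0.18, 95% interval -0.97 to -0.12) missed the threshold (limma adjusted p = 0.053). It was -0.64 without knockout replicate 2 (limma adjusted p = 0.041) and -0.34 without knockout replicate 3 (limma adjusted p = 0.14). TFEB is known to be governed largely by phosphorylation and entry into the nucleus, which RNA levels do not measure.

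**Figure D3:**
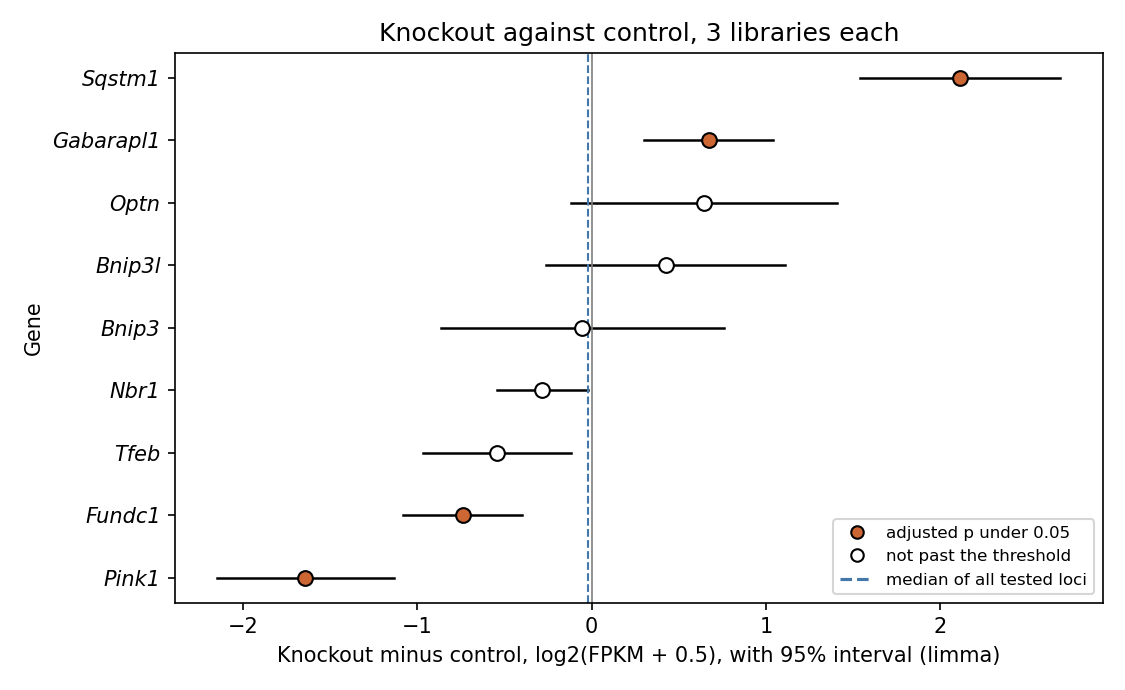
Difference of knockout and control means on the log2(FPKM + 0.5) scale for each of the 9 genes, with 95% intervals from limma and filled points where the adjusted p is under 0.05. Sqstm1 and Gabarapl1 lie above 0, Fundc1 and Pink1 below, and the dashed line marks the median of all tested loci at -0.02.

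The order of levels differed between the groups. In controls it ran Pink1, Sqstm1, Bnip3, Nbr1, Optn, Gabarapl1, Bnip3l, Fundc1 and Tfeb, and neighbours overlapped in their ranges only for Optn with Gabarapl1 and for Fundc1 with Tfeb. In knockouts it ran Sqstm1, Bnip3, Pink1, Optn, Gabarapl1, Nbr1, Bnip3l, Fundc1 and Tfeb. There the lowest Sqstm1 library (420 FPKM) was above the highest Bnip3 library (140 FPKM), Gabarapl1 lay above Nbr1 and Bnip3l above Fundc1, and every other pair of neighbours overlapped. The highest knockout library of a gene was replicate 3 for 7 of the 9 genes and the lowest was replicate 2 for 6. Over all tested loci replicate 3 was the highest knockout for 43.2% and replicate 2 the lowest for 43.8%. Knockout replicate 2 also had the lowest summed heart muscle markers (6268 FPKM), whose part in these levels was not tested. Its Myl2 was 662 FPKM, against 4897 and 4683 FPKM in knockout replicates 1 and 3, and its Myl3 226, against 1637 and 1334 FPKM. Its Actn2, Tnnt2 and Tnni3 were also the lowest of the knockouts. Its Myh6 (2327 FPKM) and Ryr2 (79.0 FPKM) were above those of knockout replicate 1 (2262 and 65.5 FPKM).

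The loci whose levels followed Sqstm1 most closely over the 6 libraries were Esd, Panx1 and Puf60, with Pearson r of 0.999, 0.998 and 0.998 on the log2 scale. Esd, which encodes an esterase that acts on S-formylglutathione, had 52.8 to 54.2 FPKM in controls and 273, 195 and 426 FPKM in knockouts. Panx1, a membrane channel, stood at 0.490 to 0.749 FPKM in controls and at 2.54 to 5.15 FPKM in knockouts. Puf60, a splicing factor, moved far less, from 26.1 to 26.5 FPKM in controls to 31.5 to 34.5 FPKM in the knockout libraries (log2 change 0.31, limma adjusted p = 0.054). The 6 libraries form 2 groups that lie apart for these loci, so r is given as a description.

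Of 15 other cargo receptors and adaptors tested, 2 rose, 3 fell and 10 did not pass (median log2 fold change -0.17). Over all tested loci 16.1% were called higher and 19.5% lower, the background for the counts of this list and of those that follow. Without knockout replicate 2 or 3, 5 fell, and with libraries scaled to one sum 5 rose and 2 fell. Stbd1, a receptor that brings glycogen to autophagosomes, rose from 3.65 ± 0.916 to 36.4 ± 9.73 FPKM, with 26.5, 36.6 and 45.9 FPKM in single knockout libraries (log2 change 3.14, SE 0.24, limma adjusted p = 0.00034). Tex264, a receptor for the endoplasmic reticulum, rose from 15.5 ± 1.32 to 53.1 ± 18.6 FPKM (log2 fold change 1.69, limma adjusted p = 0.0019). Fundc2, a relative of Fundc1 in the mitochondrial outer membrane, fell from 33.7 ± 1.87 to 16.5 ± 2.63 FPKM (log2 fold change -1.02, limma adjusted p = 0.0023). The ratio of Fundc1 to Fundc2 was 0.359 to 0.469 in controls and 0.466 to 0.525 in knockouts. The locus of Ccpg1, another receptor for the endoplasmic reticulum, which is merged with Dyx1c1, fell from 25.7 ± 1.00 to 15.7 ± 2.71 FPKM (limma adjusted p = 0.0083).

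Of 18 partners of the PINK1 pathway, 0 rose by limma (0 also at an unadjusted p under 0.05), 4 fell and 14 did not pass (median log2 fold change -0.04). The share called lower over all tested loci was 19.5%. Oma1, an inner membrane protease known to cleave the fusion protein OPA1, fell from 16.1 ± 0.928 to 7.91 ± 1.70 FPKM (log2 fold change -0.996, limma adjusted p = 0.0038). The locus of Rhot2, which encodes the mitochondrial transport GTPase Miro2 and is merged with Wdr90, Rhbdl1 and Gm20683, fell from 53.7 ± 5.53 to 24.1 ± 4.29 FPKM (limma adjusted p = 0.0022). The smaller falls of Rhot1 (Miro1) and of Vdac1, an outer membrane channel that is tagged with ubiquitin in mitophagy, by 0.51 and 0.74 on the log2 scale (limma adjusted p = 0.025 and 0.039), were lost with any one control left out (adjusted p = 0.060 to 0.11) and with libraries scaled to one sum (adjusted p = 0.088 and 0.069). Vdac1 was also lost without knockout replicate 1 (adjusted p = 0.082) and with no filter on low values (adjusted p = 0.078). With libraries scaled to one sum, 5 of these 18 genes were higher and 2 lower. Under array weights 3 were higher and 7 lower. Without knockout replicate 2, 2 were higher, and without any one control 2 were lower.

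Of 14 genes for ATG8 proteins and their conjugation, 1 rose, 4 fell and 9 did not pass (median log2 fold change -0.26). Without any one control or knockout replicate 1, 2 fell, 0 rose by limma without control replicate 1 or 2, and with libraries scaled to one sum 3 rose and 3 fell. Map1lc3a, an LC3 protein, fell from 303 ± 21.3 to 177 ± 51.9 FPKM (log2 fold change -0.81, limma adjusted p = 0.030). This was lost without any one control or without knockout replicate 1 (adjusted p = 0.065, 0.10, 0.092 and 0.073), with no filter on low values (adjusted p = 0.060) and when scaled to one sum without loci of mitochondrial DNA (adjusted p = 0.052). Gabarapl1 was 0.101 to 0.134 times Map1lc3a in controls and 0.278 to 0.356 times in knockouts. Atg10, the E2-like enzyme for ATG12, fell from 10.5 ± 0.440 to 6.09 ± 1.00 FPKM (limma adjusted p = 0.0059), and Atg16l2 from 10.6 ± 2.05 to 5.32 ± 0.444 FPKM (limma adjusted p = 0.0049). Atg3, the E2-like enzyme for ATG8 proteins, rose from 6.72 ± 0.656 to 9.55 ± 0.567 FPKM (limma adjusted p = 0.018), and was lost without control replicate 1 or 2 or knockout replicate 1 (adjusted p = 0.069, 0.081 and 0.055).

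Of 17 genes that start the autophagosome, 2 rose, 1 fell and 14 did not pass (median log2 fold change 0.01). Without control replicate 1 or 2, 0 rose and 0 fell by limma; without control replicate 3 or knockout replicate 3, 1 rose; with libraries scaled to one sum 5 rose and 0 fell. Becn1, a subunit of the lipid kinase complex, rose from 32.7 ± 4.09 to 47.5 ± 3.16 FPKM (log2 fold change 0.54, limma adjusted p = 0.018), and Rb1cc1, the scaffold of the ULK1 complex, fell from 48.7 ± 2.00 to 34.2 ± 3.76 FPKM (log2 fold change -0.51, limma adjusted p = 0.019). Becn1 was lost without control replicate 1 or 2 (adjusted p = 0.068 and 0.090) and Rb1cc1 without any one control (adjusted p = 0.054 to 0.079). Rb1cc1 was also lost with libraries scaled to one sum (adjusted p = 0.10). The third, the locus of Vmp1 merged with Mir21a, rose at a limma adjusted p of 0.049 and was lost without control replicate 1, 2 or 3 or without knockout replicate 2 or 3 (adjusted p = 0.062, 0.15, 0.15, 0.060 and 0.091). Either other filter, or no mean-variance trend, also ended that call (adjusted p = 0.052 to 0.079).

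Relatives and regulators of TFEB were mixed, with 1 of 15 tested higher, 3 lower and 11 not past the threshold (median log2 fold change -0.03), and Tfec below the filter. The number higher was 4 without knockout replicate 2, 2 without knockout replicate 1, and 6 (with 2 lower) with libraries scaled to one sum. Mitf, a transcription factor of the same family, had 27.4, 26.5 and 28.9 FPKM in controls and 11.2, 7.90 and 9.07 FPKM in the knockout libraries (log2 change -1.52, SE 0.14, limma adjusted p = 0.00055). Zkscan3, known as a repressor of autophagy genes, fell from 21.1 ± 2.94 to 12.4 ± 0.616 FPKM (limma adjusted p = 0.0053). Flcn, which acts on the Rag GTPases, fell from 21.7 ± 0.961 to 15.0 ± 0.552 FPKM (limma adjusted p = 0.0084), lost with libraries scaled to one sum (adjusted p = 0.10). Rragc, a Rag GTPase that holds TFEB at the lysosome, rose from 12.2 ± 1.35 to 19.7 ± 2.26 FPKM (limma adjusted p = 0.0089).

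Of 13 lysosomal genes known as TFEB targets, 4 rose, 0 fell by limma (2 at an unadjusted p under 0.05) and 9 did not pass, with a median log2 fold change of 0.29 and 11 of 13 above 0. Over all tested loci 16.1% were called higher, and 5903 of 12181 had a log2 fold change above 0. The number of the 13 that rose was 2 without any one control or knockout replicate 1 or with no filter on low values. It was 6 without knockout replicate 2 and 8 with libraries scaled to one sum, and 2 fell without knockout replicate 3. Naglu and Hexa, which remove sugars from glycans and glycolipids, rose by 0.96 and 0.69 on the log2 scale (limma adjusted p = 0.0074 and 0.0066). The locus of the protease cathepsin D, Ctsd merged with Ifitm10, went from 415 ± 18.5 to 897 ± 347 FPKM (limma adjusted p = 0.027), lost without any one control or knockout replicate 1, or with no filter on low values (adjusted p = 0.067 to 0.084). Ctsa, the protective protein of lysosomal glycosidases, went from 46.0 ± 4.47 to 68.6 ± 13.4 FPKM (limma adjusted p = 0.036), lost without any one control, without knockout replicate 1 or 3, or with no filter on low values (adjusted p = 0.053 to 0.12). Macrophages also express lysosomal genes, and their markers were higher in the knockouts (105 to 119 against 65.0 to 68.4 FPKM summed), whose part in these values was not tested.

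The HIF-1 targets, the family of genes to which Bnip3 belongs, did not move in one direction. Of 13, 2 rose, 4 fell and 7 did not pass, with a median log2 fold change of -0.57 and 4 of 13 above 0. Over all tested loci 16.1% were called higher and 19.5% lower. Without control replicate 1, 1 rose. The number that fell was 3 to 6 with 1 library left out and 7 under array weights. Slc2a1, a glucose transporter, rose from 3.62 ± 0.395 to 15.6 ± 5.78 FPKM (log2 fold change 1.91, limma adjusted p = 0.0016). Ankrd37 fell from 4.61 ± 0.776 to 1.226 ± 0.0501 FPKM (log2 fold change -1.56, limma adjusted p = 0.00060). Egln1, the prolyl hydroxylase that marks HIF-1α for degradation, fell from 66.3 ± 9.15 to 27.2 ± 5.21 FPKM (limma adjusted p = 0.0023), and P4ha1, a collagen prolyl hydroxylase, from 31.1 ± 5.68 to 16.9 ± 3.28 FPKM (limma adjusted p = 0.011).

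**Figure D4:**
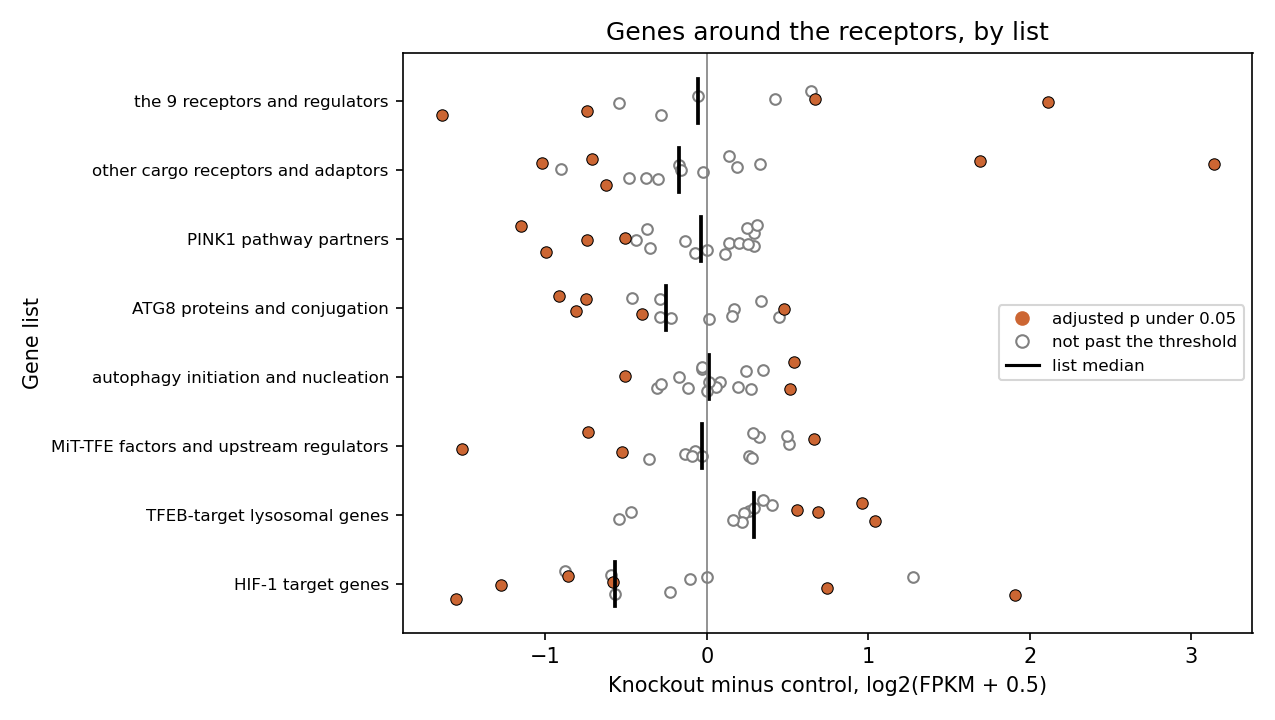
Difference of knockout and control means on the log2(FPKM + 0.5) scale for each tested gene of the 9 receptors and regulators and of 7 gene lists around them, with filled points where the limma adjusted p is under 0.05 and a bar at the list median. Stbd1 at 3.14 and Sqstm1 at 2.11 are the highest points, Pink1 at -1.64 is the lowest, and the list medians run from -0.57 to 0.29.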

How the data were processed

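The deposited values are FPKM per locus, 1 library per file, per the file headers and names. Per the submitters' processing notes, reads were handled with the aligners HISAT 0.1.6 and HISAT2 2.0.1, the assembly and quantification tools Cuffdiff, Cufflinks 2.2.1 and StringTie 1.1.0, and also bedtools, Picard 1.23 and SAMtools 1.3, on builds GRCm38 and mm10. Which of them made which values, the annotation, scaling between libraries and strand is not given in the sources used here. Genes that share a locus share a value. The 6 mitochondrial RNA libraries (PARE) were not analysed here.

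Groups and replicate numbers were taken from the source names. Whether each library came from its own animal is not stated, so p-values reflect only how these libraries vary, which may be technical. Ckmm is carried only by knockouts, so Cre and loss of the gene cannot be told apart. The 12181 loci that reached 1 FPKM in 3 or more of the 6 libraries were fitted as log2(FPKM + 0.5), which understates changes of low genes, with limma 3.58.1 in R 4.3.3 (mean-variance trend, two-sided, Benjamini-Hochberg, threshold 0.05). In simulated libraries with the spreads of these 12181 loci, 64% of 100 loci changed by 1 on the log2 scale and 91% of 100 changed by 2 were recovered, and 3.73% of calls were unchanged loci. No other loci were changed there, and each locus had the same spread in both groups. In the data 35.7% of loci were called, so these rates may not carry over. Intervals are 95% and cover 1 gene at a time. Relative depth is the most frequent ratio of values under 1 FPKM of pseudogene and small RNA loci, held by 67 to 95 of 372 to 425 loci per pair; whole reads could not be recovered. From each gene list the text names up to 4 genes past the threshold with the largest change, and all 9 members described. A further gene of the set and 1 lysosomal gene are not reported here. The members and lists were chosen with earlier results of these data known. Alternatives covered pseudocount, filter, scaling, replicate block, variance trend, array weights and each library left out.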

Additional observations from a re-analysis of the deposited data

How the results depend on the processing

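Under 17 alternatives, Sqstm1, Pink1 and Fundc1 stayed past the threshold in the same direction, with log2 fold changes of 1.86 to 2.43, -1.86 to -1.38 and -0.85 to -0.50. With 1 library left out, 1 to 3 members were higher (1 without control replicate 2 or 3, where Gabarapl1 was lost) and 2 to 3 lower. Array weights gave 3 higher members, adding Optn (limma adjusted p = 0.0042), and 4 lower members, adding Nbr1 (0.0092) and Tfeb (0.028), and turned Bnip3l to -0.074. Bnip3 turned to 0.17 scaled to one sum, 0.21 without loci of mitochondrial DNA, 0.029 after quantile normalization and, over libraries left out, ranged from -0.46 without knockout replicate 3 to 0.32 without knockout replicate 2; the cause was not tested. Over all loci, scaling to one sum moved the median log2 fold change from -0.02 to 0.20 and gave 3229 higher and 1400 lower loci, or 0.23 with 3378 and 1282 without mitochondrial DNA loci. With 1 library left out, 1212 to 2153 loci were higher and 1409 to 2389 lower, the fewest without control replicate 2. Both counts were also over 1.5 times smaller without control replicate 1, as was the count of lower loci without control replicate 3. Same-numbered libraries showed no sign of deviating together (correlations -0.08, -0.06 and -0.01), which cannot exclude that the numbers pair them. With the replicate block 2 members were higher and 2 lower, and the loci called were 1536 higher and 1807 lower. Among the other genes named, the block ended the calls of Map1lc3a, Rb1cc1, Rhot1, Vdac1 and Vmp1 (limma adjusted p = 0.051, 0.055, 0.056, 0.060 and 0.10). Zeros are less certain in the shallower controls, but no member was at 0.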
